A study of Mus musculus with 4 samples.

Results

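Nucleoporins, the proteins that build the nuclear pore complex, and the importins and exportins that carry cargo through it were examined in ASZ001 cells, a mouse basal cell carcinoma (BCC) line, with and without a c-FOS vector. Members were all gene symbols of the deposited count table that begin with Nup, Kpna, Kpnb, Ipo, Xpo or Tnpo followed by a digit, together with Xpot. This gave 44 genes of 24909 rows, 21 nucleoporins and 23 transport receptors. The study measured messenger RNA by RNA-seq in 4 libraries. The 2 control libraries came from ASZ001 cells carrying an empty doxycycline-inducible vector, and the 2 c-FOS libraries from ASZ001 cells carrying a doxycycline-inducible c-FOS vector. Doxycycline was given in all 4 samples, so c-FOS vector cells without the drug were not among them, and the labels give no dose or time. The labels do not say whether the libraries of a group came from separate cultures or clones, so the p-values reflect the spread among these 4 libraries alone, and that spread may be technical.

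The nuclear pore complex is a channel through the nuclear envelope built from many copies of its parts. Its scaffold consists of the outer rings, made of the Y-shaped complex, and the inner ring, anchored by a membrane ring. Nucleoporins with phenylalanine-glycine repeats fill the channel, and filaments on the cytoplasmic side and a basket on the nuclear side complete it. Importin alpha binds cargo with a classical nuclear localization signal and hands it to importin beta, while most other importins, transportins and exportins bind cargo themselves. The small GTPase Ran, loaded with GTP in the nucleus, sets the direction of travel. Dividing cells take the envelope apart and must build pores for both daughter nuclei.

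Fos, the gene on the vector, was at 0.403 and 0.351 CPM (the count scaled to library size) in the control libraries and at 297 and 313 CPM in the c-FOS libraries, which fits the labels. Total counts lay between 28405433 and 32465409 per library. Krt5, Krt14, Krt17 and Trp63, which mark basal keratinocytes, were detected in all libraries and fell with c-FOS, as did the Hedgehog pathway genes Gli1 and Ptch1. Krt5 was at 11097 and 11662 CPM in control and 3731 and 3789.6 CPM in c-FOS libraries, and Gli1 at 15.09 and 15.02 against 2.34 and 2.03 CPM. Of markers of other cell types, the summed level of 7 fibroblast genes was 5.40 and 5.65 CPM in control and 14.9 and 16.5 CPM in c-FOS libraries, with Thy1 at 0 in all 4. Most of that difference lay in Pdgfra (4.24 and 4.23 against 11.3 and 11.9 CPM) and Col1a2 (0.471 and 0.607 against 2.98 and 3.91 CPM). The summed level of 5 leukocyte genes was 12.2 and 10.6 against 32.02 and 33.6 CPM, with Cd3e at 0, Ptprc below 0.1 CPM and most of the difference in Csf1r, at 18.4 CPM in both c-FOS libraries. Cd68, at 11.8 and 10.3 against 13.5 and 15.1 CPM, made up most of the control level. The summed level of 3 endothelial genes was 83.0 and 79.4 against 101 and 100.3 CPM, nearly all of it Pecam1, with Kdr at 0. For 4 melanocyte genes it was 49.4 and 51.7 against 48.5 and 51.2 CPM, nearly all of it Mitf, with Tyr at 0. The part of these marker genes in the results below was not tested.

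Nucleoporin transcripts were mostly lower with c-FOS, whereas transport receptors went both ways. Of 20 tested nucleoporins, 13 fell, 1 rose and 6 did not pass a threshold of 0.05 (quasi-likelihood test of edgeR, p-values adjusted by Benjamini-Hochberg over all genes). Of 23 tested receptors, 7 fell, 7 rose and 9 did not pass. Among all 12791 tested genes 67.1% passed, 33.3% lower and 33.8% higher. The lower calls thus took 65% of the nucleoporins and 30.4% of the receptors. The median log2 fold change was -0.22 for nucleoporins, -0.055 for receptors and -0.01 for all tested genes. Groups did not overlap, in either direction, for 83.6% of all tested genes, 42.2% lower and 41.5% higher in c-FOS libraries. Among nucleoporins 15 were lower without overlap, 2 higher and 3 overlapped, and among receptors 11, 8 and 4. The sizes were small. Changes past 2-fold were made by 15.5% of all tested genes but by no nucleoporin and by 2 receptors, both of which were below 2 CPM in every library. In bulk RNA, fewer cells that express a gene and less of its RNA per cell cannot be told apart.

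**Figure D1:**
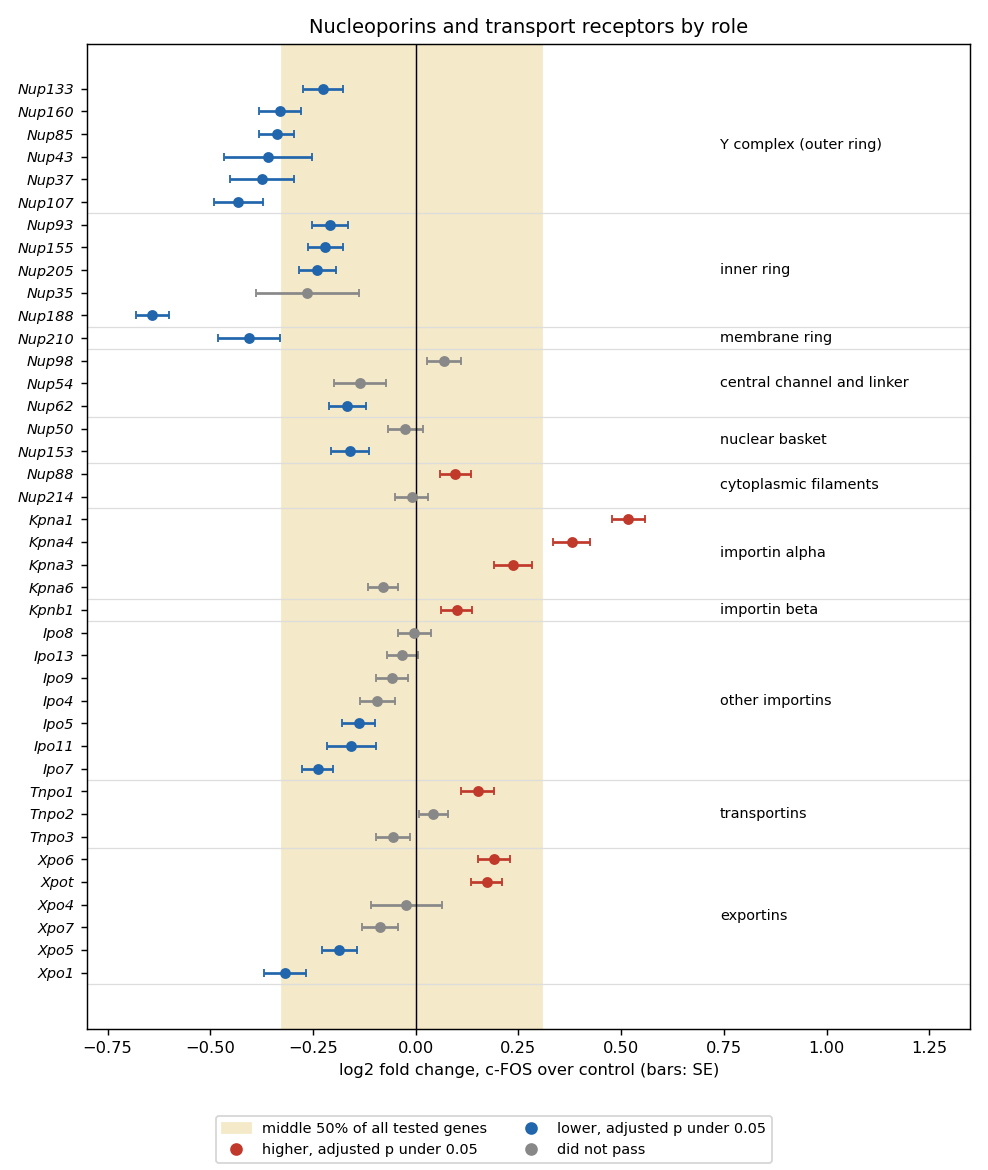
Log2 fold change of c-FOS over control (x axis, points with SE bars, n = 2 per group) for the 40 members with a control mean above 2 CPM, grouped by role; the shaded band spans the middle 50% of all tested genes. Of the 11 scaffold genes (Y complex and inner ring) all points lie below 0, while Kpna1, Kpna4 and Kpna3 stand highest.

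The balance of calls moved with the scaling. When library totals replaced TMM factors, the median of all tested genes was -0.14, and 71.1% of tested genes passed, 46% as lower and 25.2% as higher. On that scale 17 nucleoporins fell and none rose, and 15 receptors fell and 2 rose. Without c-FOS replicate 2, under TMM, the median log2 fold change was -0.22 for nucleoporins and -0.03 for receptors. Relative to the median of all genes, nucleoporins stood at -0.22 and receptors at -0.05 with both TMM factors and library totals. A change of scaling shifts all genes nearly alike, so these distances could not move and are no check of the result.

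Promoter sequences were compared because the vector encodes an AP-1 subunit and many members moved in a common direction. RefSeq promoters (GRCm38.p6, windows of 300 bases from 250 before to 50 after a start) were found for 35 of 44 members, some with more than 1 start. Members without a window, and so not searched, were Kpna1 and Kpna3, which rose, and Nup85 and Nup43, which fell. The others were Nup35, Nup210l, Kpna6, Xpo4 and Xpo7, which did not pass. Kpna1 had the largest rise of any member. The AP-1 motif TGANTCA, read on both strands, was in 0 of 20 nucleoporin windows, in 4 of 22 receptor windows and in 7.81% of all 32851 windows. The 4 belong to Xpot and Tnpo1, which rose, and to Tnpo2 and Ipo4, which did not pass. Tnpo1 and Tnpo2 each also have a window at another start without a match. The NRF1 motif was in 3 nucleoporin windows and 1 receptor window, against 0.971% of all windows. These belong to Nup62, Nup107 and Xpo5, which fell, and to Nup50, which did not pass. CCAAT was in 11 nucleoporin and 12 receptor windows, against 37.4%. Of the other motifs searched, E2F was in 2 and 0 windows, against 2.19%, and ETS in 2 and 2, against 3.89%. The E-box was in 3 and 4, against 7.15%, and CHR in 3 and 5, against 17.9%. Windows of the same gene can overlap, as for Nup37, and no motif difference was tested. A match describes letters and does not show binding. The stretches upstream of the start without annotated exons are shown for Xpot, a receptor that rose and holds an AP-1 match (chr10:121626333-121626582), for Kpna4, a receptor with a larger rise and no match (chr3:69127114-69127342), and for Nup107, a scaffold gene that fell and holds an NRF1 match (chr10:117792706-117792955). All are on the minus strand, written 5′ to 3′, and capitals mark matches to the AP-1, CCAAT and NRF1 motifs on either strand.
Xpot: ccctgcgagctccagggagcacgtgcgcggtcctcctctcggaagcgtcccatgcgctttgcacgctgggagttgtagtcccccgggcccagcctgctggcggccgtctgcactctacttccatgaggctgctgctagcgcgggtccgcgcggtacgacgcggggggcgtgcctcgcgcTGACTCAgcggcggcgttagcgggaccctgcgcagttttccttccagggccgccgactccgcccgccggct
Kpna4: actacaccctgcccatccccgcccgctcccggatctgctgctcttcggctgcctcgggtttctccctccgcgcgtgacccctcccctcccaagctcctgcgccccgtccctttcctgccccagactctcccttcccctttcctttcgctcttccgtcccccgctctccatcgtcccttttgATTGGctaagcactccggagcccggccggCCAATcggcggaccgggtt
Nup107: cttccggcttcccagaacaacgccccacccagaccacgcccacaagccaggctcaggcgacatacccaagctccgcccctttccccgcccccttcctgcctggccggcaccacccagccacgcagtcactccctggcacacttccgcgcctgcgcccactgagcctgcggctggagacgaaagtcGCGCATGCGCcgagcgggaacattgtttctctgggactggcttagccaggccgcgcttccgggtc
The AP-1 match of Xpot reads TGACTCA, and the Kpna4 stretch holds CCAAT once on each strand.

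Of the 13 nucleoporins that fell, 10 were scaffold genes. Of the Y complex, which forms the outer rings and also acts at kinetochores, the 6 subunits counted here from the Nup symbols fell. Sec13, which rose, and Nup98, whose gene also encodes a Y complex subunit and which did not pass, are not among the 6. In the inner ring, 4 of 5 fell, and Nup35 did not pass (log2 fold change -0.26). Over these 11 genes the median log2 fold change was -0.33 and the groups did not overlap for any of them. Groups also did not overlap for 83.6% of all tested genes, 42.2% lower in c-FOS libraries. In the channel, linker, basket and filament genes, a set formed after the values were seen, 2 of 7 fell, 1 rose and 4 did not pass, with a median of -0.03. Whether scaffold and periphery differ was not tested.

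Among the Y complex genes, Nup107, a core scaffold subunit, was at 54.0 and 60.8 CPM in control and 42.7 and 42.4 CPM in c-FOS libraries. Both c-FOS libraries lay below both control libraries, and its log2 fold change was -0.43 ± 0.06 (SE; edgeR quasi-likelihood, adjusted p = 1.82e-05). Nup85 was at 112 and 117 against 92.0 and 89.4 CPM, and Nup160 at 53.5 and 56.3 against 44.3 and 43.0 CPM. Their log2 fold changes were -0.34 and -0.33. Nup37 and Nup43, small propeller-shaped subunits of the vertebrate Y complex, fell by 0.37 and 0.36 on the log2 scale. The Nup43 call did not hold in DESeq2 or without c-FOS replicate 2 (over all alternatives, edgeR and DESeq2 adjusted p-values for Nup43 ran from 0.000726 to 0.0889). Nup133, which links neighbouring Y complexes, had the smallest of the 6 changes, -0.23 ± 0.05 (SE), from 76.3 and 82.7 to 68.6 and 67.4 CPM.

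In the inner ring Nup188 stood apart in size. This large scaffold protein, a paralogue of Nup205, was at 142 and 147 CPM in control and at 93.4 and 92.1 CPM in c-FOS libraries. The mean fell by 35.9%, a log2 fold change of -0.64 ± 0.04 (SE; edgeR quasi-likelihood, adjusted p = 5.28e-09). It was the only nucleoporin to change by more than 1.5-fold, as did 28.7% of all tested genes. Nup205 was at 141 and 153 against 126.5 and 123 CPM (log2 fold change -0.24). Nup93, the inner ring protein that connects scaffold and channel, was at 107 and 114 against 94.8 and 96.1 CPM, and Nup155 at 110.1 and 116 against 96.1 and 97.9 CPM. Their log2 fold changes were -0.21 and -0.22, and neither pair of groups overlapped. Nup35, which bends membranes, had the lowest level of the ring, 5.95 and 7.04 CPM in control and 5.34 and 5.49 CPM in c-FOS libraries.

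Nup210, a transmembrane protein of the pore membrane ring, was at 20.9 and 21.8 CPM in control and 16.0 and 16.3 CPM in c-FOS libraries, a log2 fold change of -0.41 ± 0.08 (SE). The other membrane anchors, Ndc1 (28.1 and 31.6 against 21.2 and 21.5 CPM) and Pom121 (135 and 136 against 104 and 104 CPM), are named outside the Nup series. They fell by 0.48 and 0.38 on the log2 scale, so the 3 anchors fell together. Each had groups that did not overlap, as did 83.6% of all tested genes, 42.2% lower in c-FOS libraries.

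**Figure D2:**
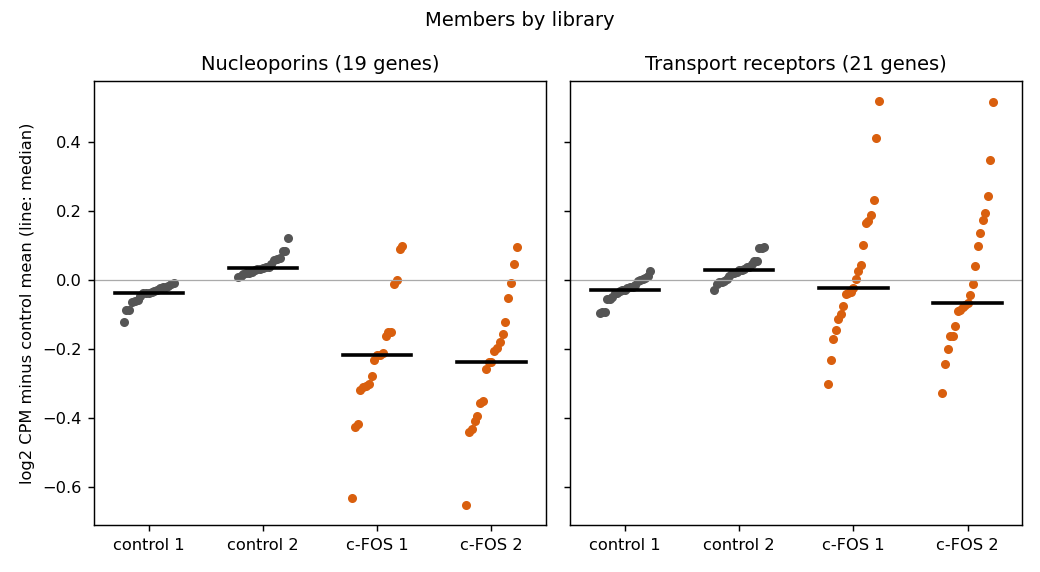
Log2 CPM of each member minus its mean in control (y axis) in each of the 4 libraries, for the 19 nucleoporins and 21 receptors with a control mean above 2 CPM; points are genes, sorted by value within a library, and lines are medians. In the left panel most c-FOS points lie below 0, and in the right panel they lie on both sides.

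Nup62, the central channel protein with phenylalanine-glycine repeats, was at 77.3 and 81.0 CPM in control and 71.3 and 69.8 CPM in c-FOS libraries (log2 fold change -0.17), and lost its call once c-FOS replicate 2 was left out (edgeR adjusted p = 0.0823, the highest over the alternatives). Its partner Nup54 did not pass, at -0.14. Nup98, a channel and linker protein whose gene also encodes the Y complex subunit Nup96, was at 139.8 and 147.5 CPM in control and 153 and 148.3 CPM in c-FOS libraries, and did not pass (0.07). Nup153, a basket protein, fell by 0.16 on the log2 scale, from 129 and 141 to 120.4 and 120.8 CPM, and the call was lost without either c-FOS library. Nup50, the other basket gene, was at 77.2 and 78.2 against 77.8 and 75.04 CPM, with overlapping groups.

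On the cytoplasmic face Nup88 was the 1 nucleoporin that rose, from 142 and 145 to 153 and 153 CPM (log2 fold change 0.10 ± 0.04, SE). That call was lost in DESeq2, with the replicate block, without a count filter and without either c-FOS library, and with library totals the value was -0.04. Its binding partner Nup214 did not pass, at 108 and 110.3 CPM in control and 108 and 108 CPM in c-FOS libraries. Ranbp2, the large filament protein also called Nup358, rose from 204 and 218 to 243 and 240.3 CPM, 0.20 on the log2 scale, and 0.06 with library totals, where it did not pass.

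Of 12 pore components with other names, 4 fell, 3 rose and 5 did not pass. Thus 58.3% passed, 33.3% as lower and 25% as higher, against 67.1%, 33.3% and 33.8% of all tested genes. Besides Ndc1 and Pom121, the Y complex subunit Seh1l and Aaas fell. Sec13, which serves both the Y complex and the COPII coat of secretory vesicles, rose from 136 and 136 to 153 and 156 CPM (0.18 on the log2 scale). The channel gene Nupl1, also called Nup58, rose by 0.20 on the log2 scale, and by 0.06 with library totals, where it did not pass. With Seh1l, Sec13 and Ahctf1 added, 11 of 14 scaffold genes fell, 1 rose and 2 did not pass.

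Nup62cl had no count in any library and was not tested. Nup210l, a paralogue of Nup210, was at 0.555 and 0.862 CPM in control and 0.557 and 0.662 CPM in c-FOS libraries and did not pass.

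Of 6 importin alpha genes, 3 rose, 2 with few counts (Kpna2 and Kpna7) fell, and Kpna6 did not pass. Thus 83.3% passed, 50% as higher and 33.3% as lower, against 67.1%, 33.8% and 33.3% of all tested genes. Kpna1, an adaptor for cargo with a classical localization signal, was at 110.5 and 115.5 CPM in control and at 161.9 and 161.6 CPM in c-FOS libraries. Both c-FOS libraries exceeded both controls by far more than the replicates differed, and its log2 fold change was 0.52 ± 0.04 (SE; edgeR quasi-likelihood, adjusted p = 4.97e-08). Kpna4 rose from 135 and 145 to 186 and 178 CPM, a log2 fold change of 0.38 ± 0.04 (SE). Kpna3, its close paralogue, rose from 72.0 and 77.7 to 87.8 and 88.5 CPM, a log2 fold change of 0.24 ± 0.05 (SE), but did not pass with library totals (0.10). Kpna6 did not rise with them: it was at 212 and 210.2 CPM in control and 201 and 199 CPM in c-FOS libraries (log2 fold change -0.08, edgeR adjusted p = 0.0649), and passed as lower with library totals, with upper-quartile factors and without control replicate 2.

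The make-up of the importin alpha pool shifted accordingly. Per kilobase of gene model, the importin alpha genes summed to 120 and 124 CPM per kilobase in control and 147 and 145 in c-FOS libraries. Kpna1 supplied 23.1% and 23.2% of this level in control and 27.4% and 27.9% in c-FOS libraries, while Kpna6 supplied 31.2% and 29.7% against 23.9% and 24.1%. Per kilobase, Kpna6 and Kpna4 were thus level at the top in control cells, and Kpna4 was highest in c-FOS cells at 34.1% and 33.2%. That order rests on the gene model length, 3707 bases for Kpna4, whose longest coding transcript in GENCODE M21 has 8819. By CPM without length, Kpna6 was the highest importin alpha gene in both groups. Shares within a library do not depend on scaling, but they depend on the lengths used. They also leave out what Kpna2 may contribute, as set out next.

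**Figure D3:**
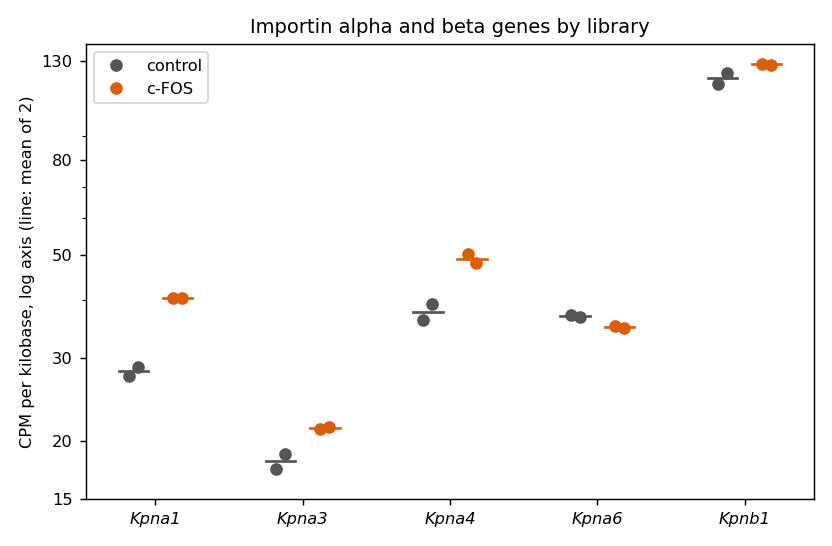
CPM per kilobase (log axis) of 4 importin alpha genes and importin beta 1 in each library; points are libraries and short lines are means of the 2 libraries of a group. Kpna1, Kpna3 and Kpna4 are higher in both c-FOS libraries than in both control libraries, and Kpna6 is lower.

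Kpna2, the importin alpha typical of dividing cells, was listed at only 18 and 27 counts in control and 14.5 and 5 in c-FOS libraries. Of the 50-base stretches of its longest coding transcript in GENCODE M21, 92.4% also occur in transcripts of other genes, 91% in Gm10184. Reads from such stretches cannot be assigned to Kpna2, so its level and its log2 fold change of -1.10 ± 0.45 (SE) are uncertain, and the call was lost in DESeq2 and without control replicate 2 or c-FOS replicate 2. The Kpna2 value moved to -2.16 when c-FOS replicate 1 was left out and to -0.44 when replicate 2 was. The same holds for Nup35 (83%, Gm4353) and in part for Ipo4 (59.5%, Gm49378). The next highest shares were 20.3% for Nup54, 14.4% for Xpot, 14.1% for Tnpo1 and 11.3% for Nup133, and 37 of 44 members had under 10%. Kpna7, an importin alpha of eggs and early embryos, had 45 and 21 counts in control and 1.5 and 3 in c-FOS libraries. Its log2 fold change of -3.61 ± 0.59 (SE) was the largest of any member, at a level of 1.51 CPM or below.

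Kpnb1, importin beta 1, which carries importin alpha with its cargo and also other cargo alone, was the most abundant member of both classes. It was at 685 and 722 CPM in control and 755 and 753 CPM in c-FOS libraries, a log2 fold change of 0.10 ± 0.04 (SE; edgeR quasi-likelihood, adjusted p = 0.0306). The call was lost with the replicate block, with upper-quartile factors (adjusted p = 0.397 in edgeR, the highest for Kpnb1) and without either c-FOS library, and the value was -0.04 with library totals. Per kilobase it made up 15.6% and 15.9% of the summed receptor level in control and 16.5% and 16.6% in c-FOS libraries.

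None of the 7 other importins rose: 3 fell and 4 did not pass. Thus 42.9% passed, all as lower, against 67.1% of all tested genes, 33.3% as lower. Ipo7, which imports ribosomal proteins and, with importin beta, linker histone H1, was at 229 and 236 CPM in control and 198 and 196 CPM in c-FOS libraries, a log2 fold change of -0.24 ± 0.04 (SE). Ipo5, another importer of ribosomal proteins and histones, fell by 0.14 on the log2 scale, from 162 and 168 to 152 and 147 CPM, a call lost without c-FOS replicate 2. Ipo11 fell by 0.16, from 52.0 and 59.3 to 50.3 and 49.6 CPM, and did not pass in DESeq2 or without control replicate 2 or either c-FOS library. Ipo8, the closest paralogue of Ipo7, was at 109.7 and 112.8 against 111.6 and 110.4 CPM. Its groups overlapped and its log2 fold change was 0.00. Ipo13, Ipo9 and Ipo4 had values of -0.03, -0.06 and -0.09, and passed as lower under both library totals and upper-quartile factors.

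Of the transportins, Tnpo1, which imports hnRNP proteins, rose from 141 and 146 to 161 and 157 CPM (log2 fold change 0.15 ± 0.04, SE). That value fell to 0.01 with library totals, and the call was also lost with upper-quartile factors and without c-FOS replicate 1. Tnpo2, its paralogue, was at 342 and 336 against 349.5 and 348.4 CPM and did not pass (0.04), and with library totals it passed as lower (-0.095). Tnpo3, which imports SR splicing factors, did not pass (-0.055).

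Of 6 exportins, 2 fell, 2 rose and 2 did not pass, so 66.7% passed, near the 67.1% of all tested genes. Xpo1, the main exporter of proteins with a leucine-rich export signal, was at 204 and 232 CPM in control and 177 and 174 CPM in c-FOS libraries. The 2 control libraries differed more than for most members, but both lay above both c-FOS libraries, and the log2 fold change was -0.32 ± 0.05 (SE; edgeR quasi-likelihood, adjusted p = 8.84e-05). Xpo5, the exporter of microRNA precursors, fell from 115 and 121 to 105 and 103 CPM (-0.19 on the log2 scale). Xpot, the exporter of transfer RNA, rose from 169 and 174 to 193.1 and 193.5 CPM (0.17), and Xpo6, the exporter of actin with profilin, from 103.5 and 102.9 to 117.5 and 118.1 CPM (0.19). With library totals Xpot and Xpo6 did not pass, at 0.04 and 0.05. Xpo4 and Xpo7 did not pass (-0.02 and -0.09).

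Of 9 further receptors and export adaptors named otherwise, none rose, 4 fell and 5 did not pass. Thus 44.4% passed, all as lower, against 67.1% of all tested genes, 33.3% as lower. Cse1l, the exportin that returns importin alpha to the cytoplasm, fell from 189 and 214 to 151 and 146 CPM, a log2 fold change of -0.44 ± 0.05 (SE). The messenger RNA export receptor Nxf1 and its partners Nxt1 (-0.46) and Nxt2 (-0.48) fell too, though the Nxf1 call was lost without c-FOS replicate 1. Cse1l was thus lower in the libraries in which Kpna1, Kpna3 and Kpna4 were higher.

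In the Ran cycle, 4 of 6 genes fell and none rose. Thus 66.7% passed, near the 67.1% of all tested genes, among which 33.3% fell and 33.8% rose. Rcc1, the exchange factor that loads Ran with GTP on chromatin, was at 41.1 and 44.6 CPM in control and 29.2 and 28.5 CPM in c-FOS libraries, a log2 fold change of -0.57 ± 0.06 (SE). Rangap1, which triggers GTP hydrolysis outside the nucleus, was at 215 and 220 against 164 and 169 CPM (-0.38). Ran itself was at 214 and 237 against 192 and 190 CPM (-0.24), and Ranbp1 also fell. Ranbp3 and Rangrf did not pass.

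Among 17 messenger RNA export genes, 7 fell, 3 rose and 7 did not pass, so 58.8% passed, against 67.1% of all tested genes. Their median was -0.08 on the log2 scale. The largest falls were in Ddx39b, the TREX helicase, from 226 and 222 to 142 and 142 CPM (-0.66), and in its adaptor Alyref, from 133 and 139 to 88.6 and 90.2 CPM (-0.61). Of its TREX partners, Thoc6 rose, from 11.1 and 10.8 to 16.1 and 16.5 CPM (0.58), as did Thoc1 (0.20, a call lost with library totals and without c-FOS replicate 2), while Thoc2 and Thoc5 fell.

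The nuclear lamina is the filament layer to which the pores are anchored. All 13 listed lamina and envelope genes passed, 8 lower and 5 higher, where 67.1% of all tested genes passed. Lmnb1, a B-type lamin, fell from 99.2 and 113 to 31.1 and 27.8 CPM (-1.85 on the log2 scale) and Tmpo, which encodes lamina-associated polypeptide 2, from 229 and 259 to 110.5 and 102.2 CPM (-1.20). Lmna, the A-type lamin gene, rose from 711 and 668 to 1102 and 1150 CPM (0.71), as did Syne1 (0.64), an outer membrane nesprin.

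Proliferation genes were lower in the same libraries. Of 22 such genes 21 fell, E2f1 did not pass, and the median was -1.75 on the log2 scale, with Top2a and Aurkb both at -2.50. Among all tested genes 33.3% fell. The smallest changes that passed were those of Rrm1 (-0.34) and Ccne1 (-0.74). The summed level of the 22 genes was 1957 and 2279 CPM in control and 729.5 and 661 CPM in c-FOS libraries. The part of proliferation in the nucleoporin result was not tested.

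Set against each other by summed level per kilobase, nucleoporins came to 388 and 408 CPM per kilobase in control and 352 and 348 in c-FOS libraries, and receptors to 747 and 773 against 779 and 769. The c-FOS libraries were below both controls for nucleoporins, and for receptors the groups overlapped. The ratio of receptor to nucleoporin transcripts was 1.93 and 1.89 in control and 2.21 and 2.21 in c-FOS libraries, a ratio within a library that scaling does not alter. Without Kpnb1 it was 1.63 and 1.59 against 1.85 and 1.84. The difference of the 2 median log2 fold changes, nucleoporins minus receptors, was -0.17, and lay between -0.22 without control replicate 1 and -0.12 without control replicate 2. No p-value is given for this difference, because genes are not replicates and an exact test of 2 libraries against 2 cannot reach the threshold. Both contrasts cover only members chosen by symbol. Among genes named otherwise the order was reversed, with medians of -0.04 for 12 pore components and -0.13 for 9 receptors and adaptors. Those pore components summed to 1202 and 1258 CPM in control and 1229 and 1232 in c-FOS libraries. Those receptors and adaptors summed to 427 and 459 against 360 and 364 CPM.

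Within the pore the summed level of the Y complex was 117 and 124 CPM per kilobase in control and 96.7 and 93.3 in c-FOS libraries, and that of the inner ring 104.5 and 111.2 against 86.9 and 86.9. That of the 2 cytoplasmic filament genes was 71.2 and 72.6 against 75.9 and 75.8. Most of it was Nup88, at means of 58.5 in control and 62.6 in c-FOS libraries, whose log2 fold change was -0.04 with library totals. The mean levels of single Y complex genes in control ran from 7.44 CPM per kilobase for Nup43 to 53.6 for Nup85.

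**Figure D4:**
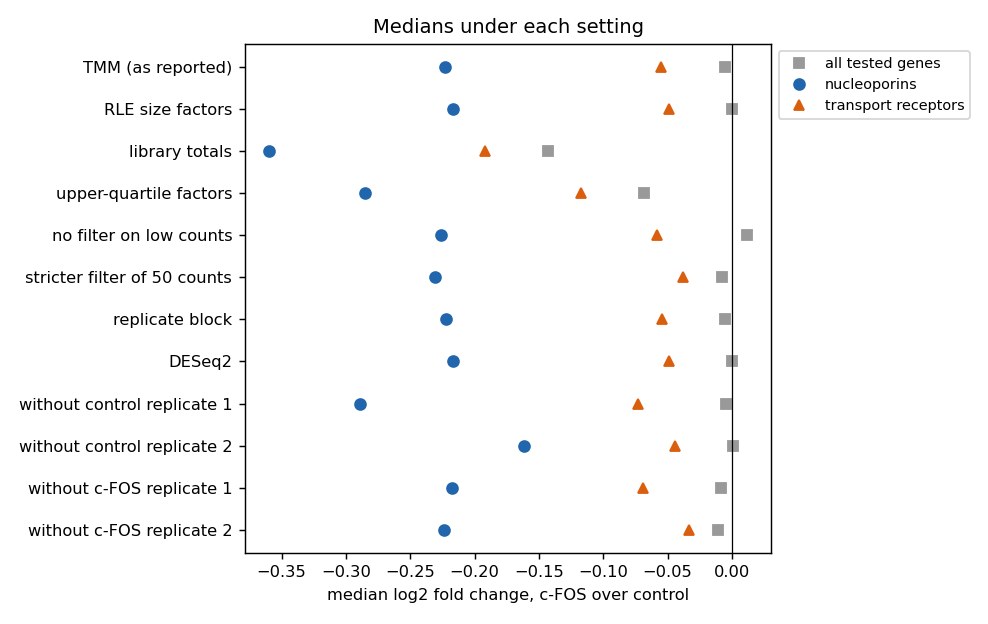
Median log2 fold change (x axis) of nucleoporins, transport receptors and all tested genes under the reported fit and each alternative (y axis). The nucleoporin median lies left of the receptor median in every row, and the 3 symbols move together with library totals and upper-quartile factors.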

How the data were processed

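The authors deposited 1 table of expected counts per gene symbol in 4 libraries. Per the series design text, reads were aligned with TopHat and analysed with HOMER, and the submitters' processing notes add mm9 and DESeq2; versions, annotation and strand setting: not given in the sources used here. Counts as deposited by the authors (expected counts) are multiples of 0.5 (48% of values above 0 were not whole) and were rounded, with 0.5 going up. The table's gene length, another value the authors deposited, gave CPM per kilobase. Of 2 repeated symbols the higher row was kept. Testing used edgeR 4.0.16 in R 4.3.3 with TMM factors, filterByExpr (minimum count 10, minimum total 15), quasi-likelihood test, two-sided, Benjamini-Hochberg at 0.05 over 12791 genes, with 2 residual degrees of freedom. CPM uses TMM library sizes; errors are SE from the F statistic. The edgeR step was tested on simulated data. Alternatives were other scalings, other filters, DESeq2 1.42.0, a replicate block and leaving out each library. Full statistics were set for the 5 highest and 5 lowest called members of each class and for members and transport genes chosen by name, and of the other lists the 2 highest and 2 lowest called genes are named; further genes named were chosen after their values were seen. Members and lists were chosen with earlier results of these data known. Shared 50-base stretches were counted on GENCODE M21 transcripts, and 50% or more was taken as mostly shared. 1 marker gene is not reported here.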

Additional observations from a re-analysis of the deposited data

How the results depend on the processing

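Of 20 tested nucleoporins 10, and of 23 receptors 6, kept direction and side of the threshold in every alternative that gave a value. The number of nucleoporins that rose (1) was 0 with library totals, upper-quartile factors, no count filter, the replicate block and DESeq2, and 0 to 2 when a library was left out. Receptors that fell (7) were 15 with library totals, 13 with upper-quartile factors and 4 to 8 when a library was left out; receptors that rose (7) were 2 with library totals and 5 to 7 when a library was left out. The nucleoporin median (-0.22) was -0.36 with library totals, -0.29 with upper-quartile factors and -0.29 to -0.16 when a library was left out; the receptor median (-0.06) was -0.19, -0.12 and -0.07 to -0.03. Their difference (-0.17) was -0.19 with the stricter filter of 50 counts and -0.22 to -0.12 when a library was left out. Scaffold genes that fell (10) were 9 to 11 over all alternatives, and nucleoporins that fell (13) were 10 to 15 when a library was left out and 17 with library totals. With library totals, a scaling that shifts all genes, Kpnb1 (-0.038), Nup88 (-0.041), Nup98 (-0.07) and Tnpo2 (-0.095) reversed, and Tnpo2 also with upper-quartile factors (-0.02). Among members that did not pass, Ipo8 (0.002) reversed with RLE size factors and in DESeq2 (0.002). When a library was left out, log2 fold changes spanned 0 for Ipo8 (-0.023 to 0.018), Nup210l (-0.451 to 0.139), Nup214 (-0.027 to 0.009), Nup50 (-0.046 to 0.003) and Xpo4 (-0.113 to 0.076). The cause of these was not tested. The replicate numbers share only a number (correlation of deviations -0.069); as a replicate block they gave 13 lower nucleoporins and 6 higher and 7 lower receptors. Without Kpna2, Nup35 and Ipo4, a choice made after seeing the data, the medians were -0.22 and -0.03. With 2 libraries per group, the calls of Kpnb1 and Nup88, both at 0.10 on the log2 scale, were each lost without either c-FOS library.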
